A study of Mus musculus with 16 samples.

Results

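The genes of the collagen alpha chains were examined in whole mouse lung. A gene was taken as a collagen chain gene where its single annotated symbol was Col, a number, the letter a and a number, which gave 44 of the 19938 genes measured. All 44 chain genes of the reference gene table were measured, and none was removed for a low level. By structure they fell into 11 fibrillar chains, 9 fibril-associated chains (FACIT), 6 collagen VI chains, 6 basement membrane chains of collagen IV, 4 transmembrane chains, 3 short chains, 2 multiplexins and 3 others. The set was fixed by a rule on gene names and not by a change between groups. It was chosen with earlier results of these data known, and each gene was represented by its probe set of highest mean.

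Collagens are secreted as triple helices of alpha chains. Fibrillar collagens such as I and III form the load-bearing fibres of airways, vessels and alveolar walls, FACIT collagens sit on the surface of those fibres, collagen VI forms beaded filaments around cells, and collagen IV forms the network of basement membranes on which epithelium and endothelium rest. In the lung most fibrillar and collagen VI chains are made by fibroblasts and related mesenchymal cells, and deposition of collagen around airways is a known part of airway remodelling in allergic asthma.

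The study used 16 Affymetrix whole-transcript arrays of lung RNA, 4 per group. Wild-type B6129SF2/J mice (WT) received saline or house dust mite allergen (HDM), as did Vldlr-/- mice (KO), which lack a receptor for lipoproteins rich in triglyceride. HDM was given as 25 µg in 10 µl through the nose on 5 days a week for 6 weeks, and saline in the same volume. The labels gave neither the ages of the mice, nor the strain background of the KO, nor how many animals an RNA sample came from. They call the 4 samples of a group biological replicates, and p-values reflect the spread between these samples. All levels are log2 values, changes are differences of log2 group means with limma's standard error (SE), n = 4 per group, and a change passed at an adjusted p under 0.05 over all 19938 genes. Levels of different genes come from different probes and are not set against each other. In bulk RNA, fewer cells of a type and less RNA per cell cannot be told apart.

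Vldlr lay between 10.27 and 10.92 on the 8 WT arrays and between 9.40 and 9.91 on the 8 KO arrays, in the direction of the labels. Array medians lay between 8.78 and 8.85, and the surfactant genes Sftpc (13.41 to 14.09) and Sftpb (13.00 to 13.50) marked every array as lung. WT saline 2 and 3 were set apart from the other saline arrays in earlier work on these data, and chain calls that end without them are named beside the result. The 4 WT HDM arrays also stood apart in circadian clock genes. A clock score, the mean of 11 clock genes minus 3 genes of opposite phase, lay between 0.22 and 0.80 on those arrays and between -0.40 and 0.02 on the other 12. Genotype or treatment and clock phase therefore cannot be told apart wherever WT HDM enters a comparison.

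Without allergen, the collagen chains of KO and WT lung could not be separated. None of 44 chains passed in limma's test of KO against WT under saline, where 0.231% of all genes did, and the smallest adjusted p was 0.797. At an unadjusted p under 0.05 the count was also 0 of 44, against 7.81% of all genes. Differences ranged from -0.15 for Col10a1, a chain of hypertrophic cartilage, to 0.08 for Col4a2, and for 43 chains every 95% interval lay within -0.342 to 0.304. Col6a5, the remaining chain, varied more between arrays and differed by -0.13 (SE 0.20). On the probe sets of highest mean, Col6a2 was the only chain whose groups did not overlap, against 6.54% of all genes. It lay at 10.11 to 10.25 in WT and at 10.07 to 10.10 in KO. A second probe set of Col6a5, examined after the data were seen, did not overlap either (WT 8.03 to 8.94, KO 7.79 to 8.01). Its difference of -0.63 (SE 0.32, limma adjusted p = 0.696) did not pass.

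In KO lung 9 chains rose and 2 fell against KO saline, and in WT lung 0 rose and 8 fell against WT saline. In KO lung the rises took in chains of the main fibres (Col1a1, Col1a2, Col3a1, Col5a2), of collagen VI (Col6a1, Col6a2, Col6a5), Col14a1 of the fibril surface and Col8a1. Over all genes 8.84% passed in KO (4.96% higher, 3.88% lower) and 17.6% in WT (7.86% higher, 9.72% lower). The members thus passed in 25.0% of cases in KO, above the background. In WT they passed in 18.2%, close to the background over both directions. All 8 of these were lower, however, and only 9.72% of all genes were lower in WT. The median change was -0.02 over the 44 chains and -0.03 over all genes in KO, and -0.13 and -0.05 in WT, so the rises in KO were those of some chains and not of the whole set. Groups did not overlap for 11 chains in KO (10 higher, 1 lower), against 14% of all genes, and for 18 in WT, all lower, against 23.5%.

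**Figure D1:**
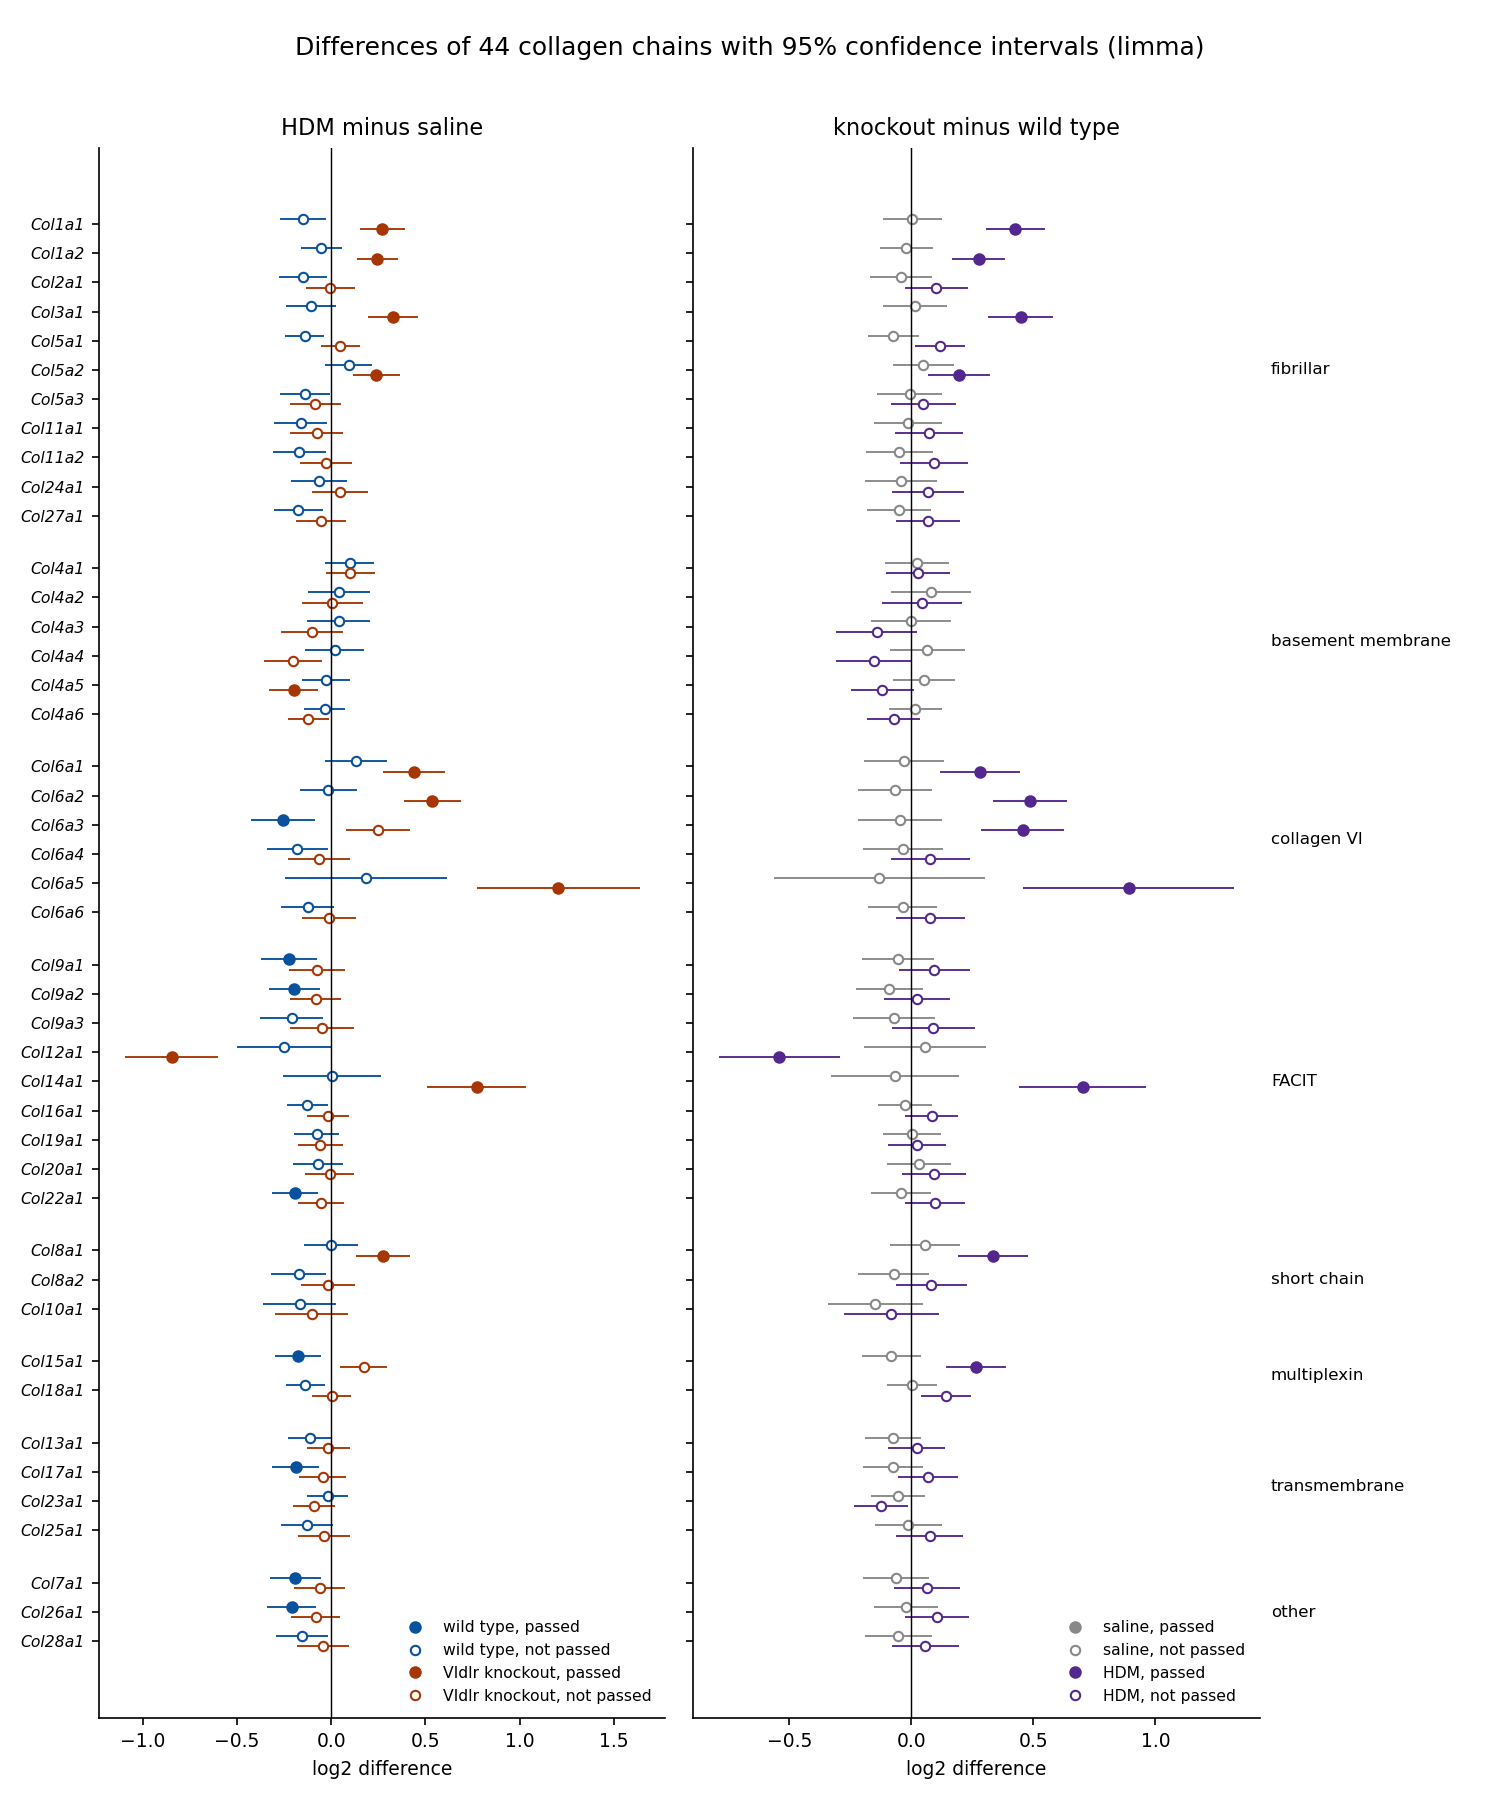
Change of each of the 44 collagen chain genes, grouped by structural class, in the comparisons named on the panels (x axis, log2 difference, points with 95% intervals, n = 4 arrays per group). Filled points passed at an adjusted p under 0.05. Most chains lie near 0, and the rises in KO lung under HDM lie in the fibrillar and collagen VI classes with Col14a1 and Col8a1.

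Of the 11 fibrillar chains Col1a1, Col1a2, Col3a1 and Col5a2 rose in KO lung and none passed in WT lung. Col1a1, the alpha 1 chain of collagen I, was at 10.56, 10.54, 10.55 and 10.57 on the KO saline arrays and at 10.77, 10.73, 10.93 and 10.89 on the KO HDM arrays. In WT it was at 10.62, 10.54, 10.50 and 10.56 under saline and at 10.48, 10.33, 10.49 and 10.32 under HDM. All KO HDM arrays thus lay above every other array, and all WT HDM arrays lay below every other array. The change with HDM was 0.27 in KO (SE 0.06, 1.21-fold, limma adjusted p = 0.00655) and -0.15 in WT (SE 0.06, adjusted p = 0.0769, not past the threshold).

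Col3a1, the chain of collagen III that runs beside collagen I in distensible tissue, was at 10.29, 10.20, 10.43 and 10.36 in KO saline and at 10.63, 10.63, 10.74 and 10.59 in KO HDM. In WT it was at 10.42, 10.24, 10.19 and 10.37 under saline and at 10.20, 10.12, 10.22 and 10.25 under HDM. KO HDM lay above all other arrays, and the WT groups overlapped. The change was 0.33 in KO (SE 0.06, 1.25-fold, limma adjusted p = 0.0035) and -0.11 in WT (SE 0.06, adjusted p = 0.227).

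Col1a2, the partner chain of Col1a1 in the collagen I trimer, was at 10.63, 10.62, 10.71 and 10.71 in KO saline and at 10.87, 10.88, 11.00 and 10.89 in KO HDM, without overlap, and rose by 0.24 (SE 0.05, limma adjusted p = 0.00672). Col5a2, a chain of collagen V, which starts collagen I fibrils, rose by 0.24 (SE 0.06, adjusted p = 0.0175) and its call ended without KO saline 1, KO HDM 2 or KO HDM 3. In WT these chains changed by -0.05 and 0.09 and did not pass. The other 7 fibrillar chains (Col2a1, Col5a1, Col5a3, Col11a1, Col11a2, Col24a1 and Col27a1), several of them best known from cartilage, passed in neither genotype. Their changes lay between -0.08 and 0.05 in KO and between -0.17 and -0.06 in WT.

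**Figure D2:**
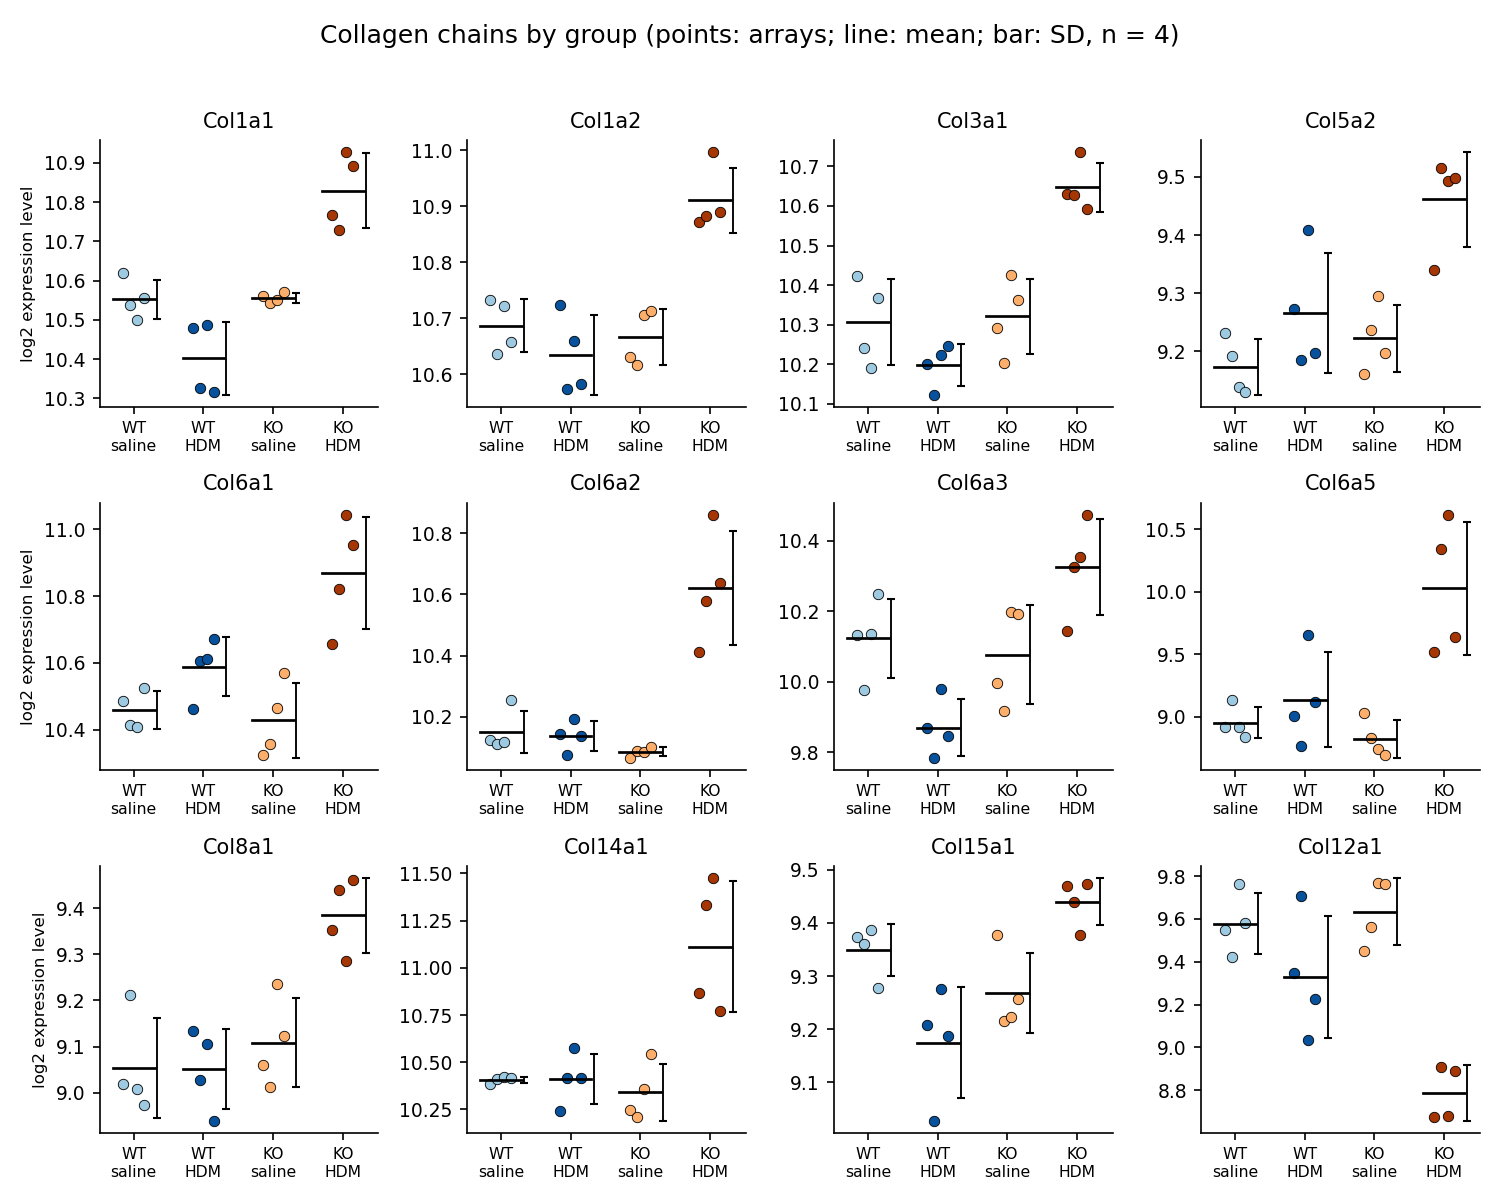
Level of the 12 chains that passed in KO against WT under HDM, by group (y axis, log2 expression level; points, arrays; line, mean; bar, SD, n = 4). The axes do not start at 0. For Col1a1 the KO HDM arrays lie above and the WT HDM arrays below all others, and Col12a1 is lowest on the KO HDM arrays.

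The promoter windows of the collagen I and III genes whose chains rose together are shown for comparison. Each window holds 250 bases before and 50 after the annotated start, from RefSeq on GRCm38.p6, in the direction of the gene. Capitals mark matches, read on either strand, to the letters CCAAT, to the GC box with the letters GGGCGG, and to the TATA box with the letters TATAAA. No match in the printed windows overlapped another. Col1a2 lies at chr6:4505368-4505667 on the + strand and Col3a1 at chr1:45311288-45311587 on the + strand.
Col1a2: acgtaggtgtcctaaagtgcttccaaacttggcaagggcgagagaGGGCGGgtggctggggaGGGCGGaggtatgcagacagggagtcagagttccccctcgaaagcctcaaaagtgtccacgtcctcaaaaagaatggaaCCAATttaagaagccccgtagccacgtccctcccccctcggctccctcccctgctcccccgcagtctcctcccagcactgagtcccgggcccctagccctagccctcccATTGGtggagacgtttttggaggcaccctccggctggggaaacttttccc
Col3a1: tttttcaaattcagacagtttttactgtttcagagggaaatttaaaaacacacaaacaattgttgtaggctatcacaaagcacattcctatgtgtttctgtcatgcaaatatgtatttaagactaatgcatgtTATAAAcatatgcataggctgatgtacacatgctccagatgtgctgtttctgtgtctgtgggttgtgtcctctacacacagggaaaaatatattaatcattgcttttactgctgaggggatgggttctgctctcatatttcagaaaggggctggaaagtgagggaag
Counting the start as 0, Col1a2 held GC boxes at -205 and -188 and a CCAAT match at -109, with another on the opposite strand at 0. Col3a1 held 1 TATAAA match at -117 and no match to the other motifs. Windows were found for 35 of the 44 chain genes, and the other 9 were Col1a1, Col2a1, Col4a3, Col5a2, Col9a3, Col12a1, Col14a1, Col22a1 and Col26a1. Of the 35, 12 held CCAAT (34.3%), 22 a GC box (62.9%) and 5 TATAAA (14.3%), against 38.0%, 35.9% and 14.2% of 27025 promoter windows of the same length. A match of letters is a description and no evidence of binding.

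Of the collagen VI chains, Col6a2 had the smallest adjusted p of all 44 in KO lung. Col6a1 and Col6a2 encode the alpha 1 and alpha 2 chains that every collagen VI monomer holds, and Col6a3 to Col6a6 encode chains that can fill the third place. Col6a2 was at 10.07, 10.09, 10.08 and 10.10 in KO saline and at 10.41, 10.58, 10.86 and 10.64 in KO HDM. In WT it was at 10.12, 10.11, 10.12 and 10.25 under saline and at 10.14, 10.07, 10.19 and 10.14 under HDM. KO HDM lay above every other array and the WT groups overlapped. The change was 0.54 in KO (SE 0.07, 1.45-fold, limma adjusted p = 0.000197) and -0.01 in WT (SE 0.07, adjusted p = 0.901).

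Col6a1 was at 10.32, 10.36, 10.46 and 10.57 in KO saline and at 10.66, 10.82, 11.04 and 10.95 in KO HDM, without overlap. It rose by 0.44 (SE 0.08, limma adjusted p = 0.00191), and the WT change was 0.13 (adjusted p = 0.235). Col6a3 was at 10.00, 9.92, 10.20 and 10.19 in KO saline and at 10.14, 10.33, 10.36 and 10.47 in KO HDM, with overlap, and its change of 0.25 did not pass (adjusted p = 0.0647). In WT Col6a3 fell by 0.25 (SE 0.08, limma adjusted p = 0.04), from 10.13, 9.98, 10.14 and 10.25 to 9.87, 9.78, 9.98 and 9.85.

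Col6a5 had the largest change of any chain. On the probe set with the higher mean it was at 9.03, 8.83, 8.74 and 8.69 in KO saline and at 9.51, 10.34, 10.61 and 9.64 in KO HDM, a rise of 1.21 (SE 0.20, 2.31-fold, limma adjusted p = 0.00142). KO HDM 2 and 3 were high and KO HDM 1 and 4 lay closer to the saline arrays, without overlap. In WT it was at 8.92, 9.13, 8.92 and 8.83 under saline and at 9.01, 8.76, 9.66 and 9.12 under HDM, with overlap (0.18, adjusted p = 0.533). A second probe set, examined after the data were seen, lay at 7.97, 7.82, 8.01 and 7.79 in KO saline and at 10.10, 10.96, 11.52 and 10.02 in KO HDM. It rose by 2.75 (SE 0.32, 6.73-fold, limma adjusted p = 5.52e-05), so both probe sets of Col6a5 rose in KO and the size depended on the probe set. In WT the second probe set lay at 8.03, 8.94, 8.81 and 8.31 under saline. Under HDM it lay at 8.60, 8.53, 9.98 and 9.36, with overlap (0.59, limma adjusted p = 0.193). Col6a4 and Col6a6 passed in neither genotype.

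Col6a1 and Col6a2 are neighbours on chromosome 10, and their windows are shown with that of Col6a5, the chain with the largest rise. Col6a1 lies at chr10:76725995-76726294 on the - strand, Col6a2 at chr10:76623581-76623880 on the - strand (the most upstream of 2 listed starts) and Col6a5 at chr9:105960594-105960893 on the - strand.
Col6a1: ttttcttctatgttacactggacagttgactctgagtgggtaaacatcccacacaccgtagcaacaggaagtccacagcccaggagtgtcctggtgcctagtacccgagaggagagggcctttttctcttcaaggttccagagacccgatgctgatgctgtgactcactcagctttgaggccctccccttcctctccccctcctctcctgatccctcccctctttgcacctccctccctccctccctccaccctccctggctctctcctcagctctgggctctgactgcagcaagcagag
Col6a2: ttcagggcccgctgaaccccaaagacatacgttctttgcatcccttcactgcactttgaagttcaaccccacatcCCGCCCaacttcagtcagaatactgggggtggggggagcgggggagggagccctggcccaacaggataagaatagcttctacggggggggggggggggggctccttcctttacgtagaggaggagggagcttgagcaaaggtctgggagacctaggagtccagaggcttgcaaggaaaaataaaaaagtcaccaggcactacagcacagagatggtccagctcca
Col6a5: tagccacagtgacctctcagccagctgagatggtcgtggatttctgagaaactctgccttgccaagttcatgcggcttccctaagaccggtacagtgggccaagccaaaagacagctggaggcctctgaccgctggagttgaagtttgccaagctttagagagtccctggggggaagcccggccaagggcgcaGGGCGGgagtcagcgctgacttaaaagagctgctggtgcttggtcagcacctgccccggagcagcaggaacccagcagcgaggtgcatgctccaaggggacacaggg
Col6a1 held none of the motifs, Col6a2 held a GC box on the opposite strand at -175 and Col6a5 held one at -57.

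Among FACIT collagens 2 chains that sit on collagen I fibrils moved in opposite directions in KO lung. Col14a1 was at 10.25, 10.21, 10.36 and 10.55 in KO saline and at 10.87, 11.34, 11.48 and 10.77 in KO HDM, and rose by 0.77 (SE 0.12, 1.71-fold, limma adjusted p = 0.000899). Col12a1 was at 9.45, 9.56, 9.77 and 9.76 in KO saline and at 8.67, 8.91, 8.68 and 8.89 in KO HDM, and fell by 0.85 (SE 0.12, adjusted p = 0.000259), the largest fall of any chain. Neither pair of groups overlapped.

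In WT, Col14a1 was at 10.38, 10.41, 10.42 and 10.41 under saline and at 10.24, 10.41, 10.57 and 10.41 under HDM (0.00, SE 0.12, limma adjusted p = 0.986). Col12a1 was at 9.55, 9.42, 9.76 and 9.58 under saline and at 9.35, 9.71, 9.03 and 9.22 under HDM (-0.25, adjusted p = 0.14), with overlap. WT HDM 3, at 9.03, was the lowest WT array for Col12a1. Within groups, over 16 arrays that share 4 group means, Col14a1 followed Col6a5 (r = 0.729) and had r = -0.026 with Col12a1.

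Of the remaining FACIT chains, Col9a1, Col9a2 and Col9a3 belong to cartilage fibrils. In WT lung Col9a1 (-0.22, limma adjusted p = 0.0362), Col9a2 (-0.20, adjusted p = 0.0456) and Col22a1 (-0.19, adjusted p = 0.0326) fell, and in KO lung they changed by -0.08, -0.08 and -0.05 and did not pass. Col9a1 was at 8.55, 8.55, 8.60 and 8.45 in WT saline and at 8.35, 8.20, 8.41 and 8.29 in WT HDM, without overlap. Of 13 cartilage markers 1 passed in WT, Chad, which rose by 0.75. The other 12 did not pass, 2 of the 13 changes were above 0, and the median change was -0.12, against -0.05 over all genes.

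Col8a1, a short chain of vessel walls, rose by 0.28 in KO lung (SE 0.07, limma adjusted p = 0.0162), from 9.06, 9.01, 9.24 and 9.12 to 9.35, 9.44, 9.29 and 9.46. Its call ended without KO saline 2 or KO HDM 2. Col8a2 and Col10a1, the other short chains, did not pass. Col15a1, a multiplexin of the zone between basement membranes and fibrils, fell by 0.18 in WT (SE 0.06, adjusted p = 0.0469) and changed by 0.17 in KO (adjusted p = 0.0761). Col18a1, whose cleaved end is endostatin, passed in neither genotype.

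The other falls in WT lung were in Col26a1 (-0.21, limma adjusted p = 0.0296), the hemidesmosome chain Col17a1 (-0.19, adjusted p = 0.0381) and the anchoring fibril chain Col7a1 (-0.19, adjusted p = 0.0484). In KO they changed by -0.08, -0.04 and -0.06 and did not pass. The largest of the 8 falls in WT was 0.25, and WT HDM 2 was the lowest WT HDM array for Col6a3, Col7a1, Col9a1, Col15a1, Col17a1, Col22a1 and Col26a1. The count of 8 was 0 without WT saline 1, 1 without each of WT saline 2, WT saline 3 and WT HDM 2, and 2 without WT HDM 4. With WT HDM 2 left out all 8 chains lost their call, and the 1 that passed was another chain. Without WT HDM 1 the count was 6, but 6 of the 8 chains no longer passed (Col6a3, Col7a1, Col9a2, Col15a1, Col17a1 and Col26a1). With quantile normalization the count was 6 as well, and Col7a1, Col9a1, Col15a1 and Col17a1 did not pass. It was 3 with arrays shifted to the same median and 2 in a fit of only these groups.

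Without WT saline 2 and 3 together none of the 8 chains passed in WT, at changes of -0.32 for Col6a3 and between -0.22 and -0.15 for the other 7 (limma adjusted p from 0.072 to 0.247). With the clock score as a covariate none passed either, at a median SE 1.92 times as wide, and the changes were -0.22 for Col6a3 and between -0.11 and -0.01 for the other 7. Col6a5 then changed by 1.16 in WT (SE 0.30, limma adjusted p = 0.063, not past the threshold) and by 1.16 in KO. Col12a1 changed by -0.66 and Col14a1 by 0.40 in WT, and neither passed there. The KO count of 11 lay between 8 and 12 when any KO array was left out, and was 10 with the clock score and 10 without WT saline 2 and 3, each without Col4a5.

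Of the 6 basement membrane chains none rose in either genotype, and Col4a5 fell in KO lung. Col4a1 and Col4a2 form the collagen IV trimer of all basement membranes, and Col4a3, Col4a4 and Col4a5 form that of alveolar and kidney basement membranes. Col4a1 changed by 0.10 in each genotype and Col4a2 by 0.04 in WT and 0.01 in KO, none past the threshold. Col4a5 was at 9.47, 9.55, 9.37 and 9.46 in KO saline and at 9.24, 9.21, 9.18 and 9.42 in KO HDM, and fell by 0.20 (SE 0.06, limma adjusted p = 0.0494), with overlap. Col4a4 was at 9.84, 9.78, 9.77 and 9.73 in KO saline and at 9.49, 9.53, 9.49 and 9.81 in KO HDM (-0.20, adjusted p = 0.1).

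KO HDM 4 lay within or above the range of the KO saline arrays for Col4a3, Col4a4 and Col4a5, and the other KO HDM arrays lay below that range. Without it Col4a4 fell by 0.28 (SE 0.06, limma adjusted p = 0.0078), Col4a5 by 0.25 (adjusted p = 0.00769), and Col4a3 changed by -0.19 (adjusted p = 0.0565). The Col4a5 call ended without KO saline 1, 2 or 4 or KO HDM 1, 2 or 3. It also ended with arrays shifted to the same median, with the clock score, in a fit of only these groups, with the replicate number as a block and without WT saline 2 and 3 (adjusted p = 0.0819), so that it held in 7 of 18 alternatives.

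KO HDM 4 stood apart from KO HDM 1 to 3 in several marker lists as well. Of 9 markers of alveolar type 1 cells, which rest on this basement membrane, 6 fell in KO under HDM (among them Ager, -0.35, and Aqp5, -0.59), and their mean centred level was -0.34, -0.25 and -0.31 on KO HDM 1 to 3 and 0.02 on KO HDM 4. Endothelial markers lay at -0.27, -0.18 and -0.19 on KO HDM 1 to 3 and at 0.12 on KO HDM 4. Leukocyte markers, of which 3 of 10 rose in KO and 3 in WT, went the other way. They lay at 0.41, 0.26 and 0.37 on KO HDM 1 to 3 and at 0.03 on KO HDM 4. On WT HDM 1 to 4 the leukocyte markers lay at 0.04, -0.30, 0.22 and 0.25. Genes of lung identity, which share Ager and Cldn18 with the type 1 list, lay at -0.27, -0.28 and -0.18 against 0.08, and fibroblast markers at -0.16, -0.04 and -0.18 against 0.14. Laminins and other basement membrane genes lay at -0.10, -0.06 and -0.16 against 0.16, and of these 15 genes none passed in KO, with Lama1 lower in WT (-0.18). The difference of KO HDM 4 was thus not limited to alveolar type 1 markers. Their log2 summed level was 15.76 to 15.86 in KO saline and 15.44 to 15.74 in KO HDM. In WT 3 of 9 fell (15.78 to 15.90 under saline, 15.55 to 15.82 under HDM) and no collagen IV chain passed. The part of these cells in the collagen IV values was not tested.

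**Figure D3:**
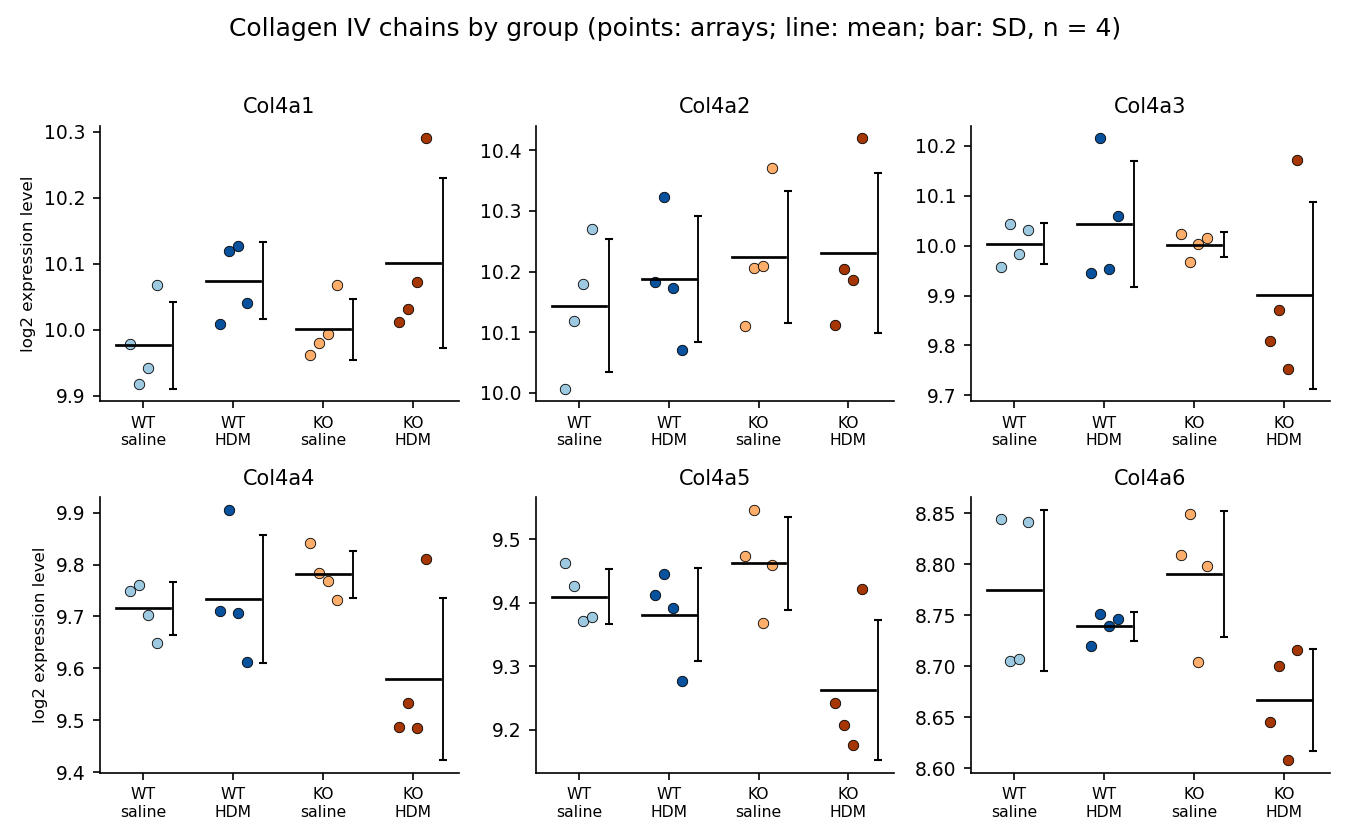
Level of the 6 collagen IV chains by group (y axis, log2 expression level; points, arrays; line, mean; bar, SD, n = 4). The axes do not start at 0. In Col4a3, Col4a4 and Col4a5 KO HDM 4 lies within or above the KO saline range and the other 3 KO HDM arrays lie below it.

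Col4a1 and Col4a2 lie head to head on chromosome 8, and their windows (chr8:11312777-11313076 on the - strand and chr8:11312555-11312854 on the + strand) share 78 bases. They are shown because these chains were also close within groups (r = 0.77 over 16 arrays, which share 4 group means).
Col4a1: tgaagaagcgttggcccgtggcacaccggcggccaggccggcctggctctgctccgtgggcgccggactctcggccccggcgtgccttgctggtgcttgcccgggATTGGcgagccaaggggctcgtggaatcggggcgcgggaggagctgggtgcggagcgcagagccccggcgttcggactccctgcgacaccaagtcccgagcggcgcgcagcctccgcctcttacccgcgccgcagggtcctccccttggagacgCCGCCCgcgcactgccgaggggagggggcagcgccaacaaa
Col4a2: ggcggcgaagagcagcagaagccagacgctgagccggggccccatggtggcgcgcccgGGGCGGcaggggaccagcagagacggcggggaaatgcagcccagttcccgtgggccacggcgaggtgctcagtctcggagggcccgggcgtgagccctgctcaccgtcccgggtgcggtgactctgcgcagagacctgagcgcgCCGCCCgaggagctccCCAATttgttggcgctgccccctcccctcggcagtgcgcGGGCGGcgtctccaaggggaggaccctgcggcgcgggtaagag
Col4a1 held CCAAT on the opposite strand at -145 and a GC box on the opposite strand at 9. Col4a2 held CCAAT at -32 and GC boxes at -192, at 7 and, on the opposite strand, at -48. Some other pairs of chains were close within groups too, at r = 0.813 for the neighbours Col4a3 and Col4a4 and 0.736 for the neighbours Col6a1 and Col6a2. Pairs on different chromosomes were Col1a1 and Col1a2 (0.672) and Col9a1 and Col9a3 (0.859, the highest of the pairs examined). Not all pairs were close, with 0.406 for Col1a1 and Col3a1, 0.364 for Col5a1 and Col5a2 and -0.268 for Col8a1 and Col8a2.

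Compared directly under HDM, KO lung held more RNA than WT lung of 11 chains and less of Col12a1. This was 27.3% of the chains, against 11.7% of all genes (5.84% higher, 5.83% lower). The median difference was 0.08 over the chains and 0.02 over all genes. The higher chains were Col1a1 (0.43, 1.34-fold, limma adjusted p = 0.000585), Col1a2 (0.28), Col3a1 (0.45, adjusted p = 0.000661), Col5a2 (0.20), Col6a1 (0.28), Col6a2 (0.49, 1.4-fold, adjusted p = 0.00102), Col6a3 (0.46, adjusted p = 0.00302), Col6a5 (0.89, adjusted p = 0.0118), Col8a1 (0.33), Col14a1 (0.70, adjusted p = 0.003) and Col15a1 (0.27). Col12a1 was lower by 0.54 (adjusted p = 0.00873). Groups did not overlap for 13 chains, against 10.8% of all genes, and they overlapped for Col5a2, Col6a1 and Col6a5. The second probe set of Col6a5 did not overlap (10.02 to 11.52 in KO HDM, 8.53 to 9.98 in WT HDM). It differed by 1.53 (SE 0.32, limma adjusted p = 0.00751). This comparison and the HDM changes above share arrays, so their calls do not support each other.

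The count was 10 to 14 when any array of these groups was left out, and it was 14 without KO HDM 4, when Col4a3 (-0.23), Col4a4 (-0.23) and Col4a5 (-0.17) were lower as well. The Col5a2 call ended without WT HDM 1, 2 or 4, without KO HDM 2, 3 or 4, with quantile normalization and without WT saline 2 and 3 (limma adjusted p = 0.0694). The Col6a1 call ended without WT HDM 1 or 2 or KO HDM 3. A fit of only these groups gave 7, without Col5a2, Col6a1, Col6a5, Col12a1 and Col15a1. With the clock score as a covariate 0 of 44 chains and 0.015% of all genes passed, and the median SE was 2.0 times as wide. Col1a1 then differed by 0.37, Col3a1 by 0.42, Col6a2 by 0.38, Col6a3 by 0.42 and Col8a1 by 0.41, while Col14a1 differed by 0.28, Col12a1 by -0.11 and Col6a5 by -0.14, the last with its sign turned.

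Several marker lists differed between these groups too. Of 9 alveolar type 2 markers 4 were lower in KO (log2 summed level 16.31 to 16.57 in KO HDM and 16.59 to 16.68 in WT HDM), and of 8 cardiac muscle markers 5 were lower (12.80 to 13.36 and 13.24 to 13.78). Of 10 endothelial markers 4 were lower (15.43 to 15.80 and 15.63 to 15.80), and of 9 alveolar type 1 markers 2 were lower (15.44 to 15.74 and 15.55 to 15.82). Of 8 lung identity genes, 4 of which are also in the alveolar lists, 2 were lower (15.69 to 16.08 and 16.01 to 16.12). Of 16 fibroblast markers 1 was higher and 1 lower, and of 9 smooth muscle markers 1 was higher. Of 10 leukocyte markers 1 was higher, and all 10 differences were above 0 (14.92 to 15.34 in KO HDM and 14.64 to 15.22 in WT HDM). The part of these cells in the chain differences was not tested.

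The difference between the HDM changes (KO minus WT) was tested directly for every chain. It passed for 5 of 44, against 0.802% of all genes (0.356% higher, 0.446% lower), each with the signed change higher in KO. These were Col14a1 (0.77, SE 0.18, limma adjusted p = 0.0496), Col6a2 (0.55, SE 0.10, adjusted p = 0.0207), Col6a3 (0.50, SE 0.11, adjusted p = 0.0492), Col3a1 (0.43, SE 0.09, adjusted p = 0.0353) and Col1a1 (0.42, SE 0.08, adjusted p = 0.0253). For Col6a3 the rise in KO did not pass and the fall in WT did, so its difference was not that of a rise in KO alone. Changes in WT that did not pass, -0.15 for Col1a1 and -0.11 for Col3a1, also enter their differences. In WT Col6a2 changed by -0.01 and Col14a1 by 0.00. Col6a5 (1.02, SE 0.29, adjusted p = 0.0997), Col12a1 (-0.60, adjusted p = 0.0971), Col15a1 (0.35, adjusted p = 0.0567) and Col1a2 (0.30, adjusted p = 0.0625) did not pass, so their HDM changes were not shown to differ between genotypes. On its second probe set Col6a5 gave 2.16 (SE 0.46, adjusted p = 0.037). There KO lay below WT under saline (-0.63, not past the threshold) and above it under HDM (1.53). Both enter the 2.16, so it was not a difference of the HDM arrays alone.

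These 5 calls changed when single arrays were left out. The count was 0 when WT HDM 4 was left out, 1 when WT saline 2, WT HDM 2, KO saline 2, KO saline 4 or KO HDM 3 was, 2 when WT saline 1, 3 or 4, KO saline 3 or KO HDM 2 was, and 3 when KO saline 1 was. It was 8 without WT HDM 3 and 9 without KO HDM 4. It was 0 without WT saline 2 and 3 together, where the 5 values lay between 0.46 and 0.76, and 0 with the clock score, where they lay between 0.35 and 0.46.

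Averaged over both genotypes, 6 chains were higher under HDM and 6 lower. This was 27.3% of the chains, close to the 25.1% of all genes (10.8% higher, 14.3% lower). Col6a1, Col6a2, Col6a5, Col14a1, Col5a2 and Col8a1 were higher, and Col12a1, Col7a1, Col9a1, Col9a2, Col22a1 and Col26a1 lower. None of the higher chains passed in WT alone, and for Col6a2 and Col14a1 the HDM change differed between genotypes. Their averages therefore do not show a rise in both genotypes. The split was 7 higher and 3 lower with arrays shifted to the same median. The count was 6 without WT saline 1 or KO saline 2 and 7 without KO saline 1. Without WT saline 2 and 3 it was 7, and Col7a1, Col9a1, Col9a2, Col22a1 and Col26a1 did not pass. Averaged over both treatments, 7 chains were higher in KO and none lower (15.9%, against 5.85% of all genes, 2.84% higher and 3.01% lower). These were Col1a1, Col1a2, Col3a1, Col6a2, Col6a3, Col8a1 and Col14a1. None of these 7 passed in KO against WT under saline, so the averages do not show a difference without allergen. The count was 2 without WT saline 3, 3 when WT HDM 4, KO saline 3 or KO HDM 2 was left out, and 4 when WT saline 1, 2 or 4, WT HDM 2, KO saline 1 or 4, or KO HDM 3 was. Without WT saline 2 and 3 it was 2, and Col1a2, Col3a1, Col6a2, Col6a3 and Col14a1 did not pass.

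Enzymes and chaperones that fold and modify the chains moved in small numbers. Of 20 measured genes for folding and hydroxylation, 2 rose and none fell in KO under HDM and 4 rose and 1 fell in WT. P4ha3, a subunit of the prolyl 4-hydroxylase that stabilises the triple helix, was at 8.45, 8.56, 8.69 and 8.51 in KO saline and at 9.05, 9.15, 9.04 and 9.10 in KO HDM, without overlap. It rose by 0.53 in KO (SE 0.07, limma adjusted p = 0.000112) and by 0.28 in WT (adjusted p = 0.012). Creb3l1, a transcription factor of the secretory pathway that acts on collagen genes, rose in KO (0.35, adjusted p = 0.0267). In WT P3h2 (0.46), Plod3 (0.29) and Ppib (0.21) rose and Crtap, part of the prolyl 3-hydroxylation complex, fell by 0.24. The collagen chaperone Serpinh1 passed in neither genotype (0.19 in KO, 0.06 in WT).

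Among 11 genes for propeptide removal and crosslinking, 1 rose in KO, the lysyl oxidase family member Loxl4. It was at 8.50, 8.59, 8.51 and 8.58 in KO saline and at 8.76, 8.95, 9.12 and 8.88 in KO HDM, without overlap (0.38, SE 0.07, limma adjusted p = 0.00252), and changed by -0.10 in WT. The difference of these changes was 0.48 (SE 0.10, adjusted p = 0.0363). In WT Tll1 (0.24) and the procollagen protease Bmp1 (0.16) rose. Lox itself passed in neither genotype (-0.13 in KO, 0.40 in WT).

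The small proteoglycans that coat collagen fibrils split in KO lung. Fibromodulin, Fmod, was at 9.63, 9.68, 9.72 and 9.63 in KO saline and at 10.55, 10.59, 10.71 and 10.64 in KO HDM, a rise of 0.96 (SE 0.09, 1.94-fold, limma adjusted p = 5.55e-06). Decorin, Dcn, was at 12.97, 13.02, 12.99 and 13.10 in KO saline and at 12.47, 12.46, 12.33 and 12.76 in KO HDM, a fall of 0.51 (SE 0.08, adjusted p = 0.000915). Neither pair of groups overlapped, and in WT they changed by 0.19 and 0.04 and did not pass. The difference of the HDM changes was 0.77 for Fmod (adjusted p = 0.0112) and -0.56 for Dcn (adjusted p = 0.0369). Lum fell in both genotypes (by 0.53 in KO and by 0.47 in WT) and Podn rose in both (0.44 and 0.36).

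**Figure D4:**
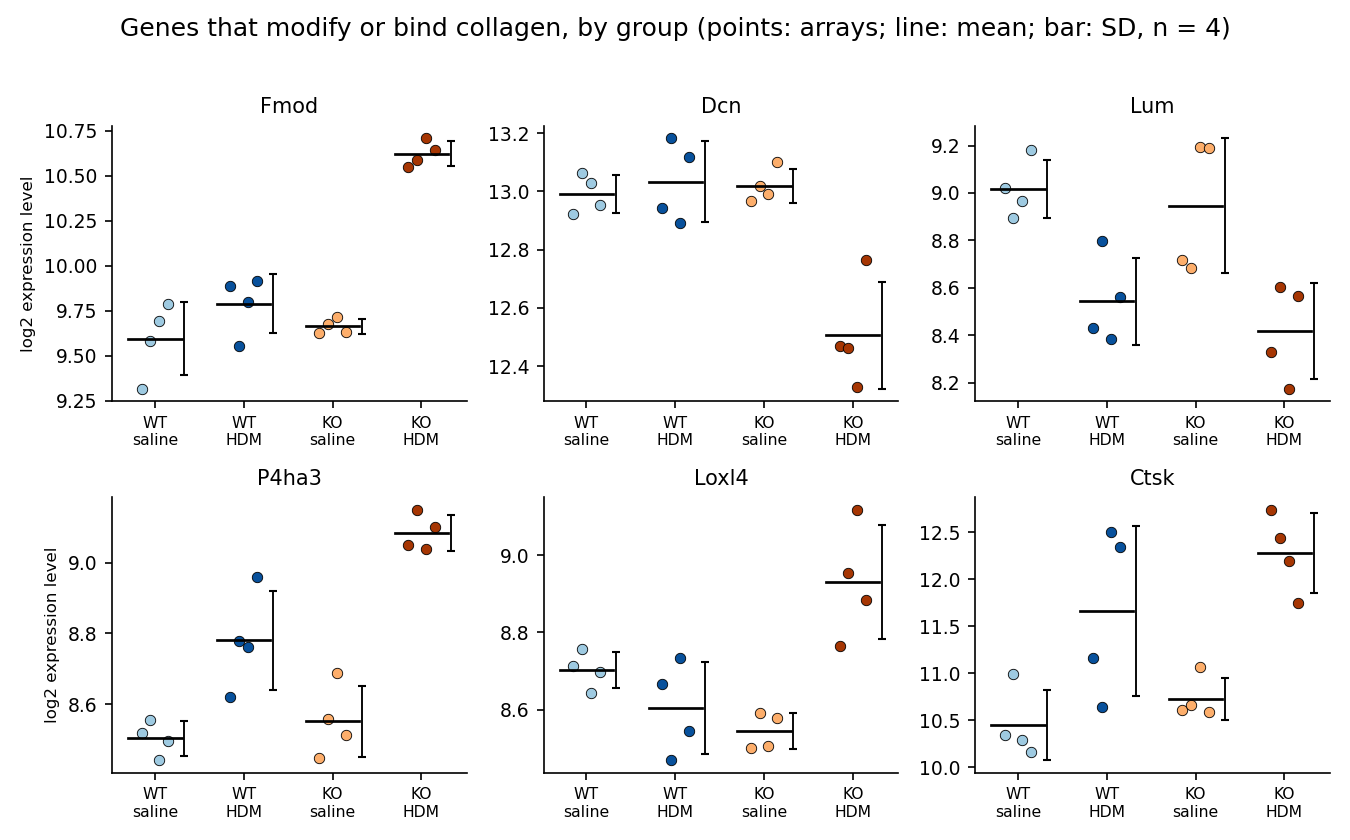
Level of genes that modify, bind or degrade collagen, by group (y axis, log2 expression level; points, arrays; line, mean; bar, SD, n = 4). The axes do not start at 0. Fmod is highest and Dcn lowest on the KO HDM arrays, Lum is lower under HDM in both genotypes, and Ctsk is higher under HDM in both.

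Of 12 collagen receptors and uptake genes, Ctsk, a protease that cleaves collagen triple helices, rose in both genotypes (1.55 in KO, limma adjusted p = 0.00582, and 1.21 in WT, adjusted p = 0.0184). Itgb1 and Itga2, integrin subunits of collagen receptors, fell in WT (-0.31 and -0.21). Among 18 genes of TGF-beta and related growth factor signalling, Inhba rose in both (1.20 in KO and 1.60 in WT). In KO Thbs1, an activator of latent TGF-beta, rose by 0.71 (SE 0.09, adjusted p = 0.000126) and Ltbp2 by 0.38, and Tgfbr3 fell by 0.40. In WT 4 of the 18 rose, Inhba with Pdgfa (0.51), Ccn2 (0.44) and Tgfbr1 (0.31), and 2 fell, Tgfb2 (-0.20) and the receptor gene Tgfbr2 (-0.17), which were named after their values were seen.

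Markers of the cells that make collagen were set beside the chains. Of 16 fibroblast markers none passed in KO and 4 fell in WT (Meox1, Mfap5, Cthrc1 and Postn), and the log2 summed level was 15.30 to 15.43 in KO saline, 15.24 to 15.60 in KO HDM, 15.35 to 15.60 in WT saline and 15.41 to 15.53 in WT HDM. Of 9 smooth muscle markers 4 rose in KO (Myh11, 0.54; Actg2, 0.51; Acta2, 0.43; Synpo2, 0.38), with summed levels of 13.93 to 14.15 under saline and 14.10 to 14.46 under HDM. In WT 2 rose and 1 fell (13.97 to 14.26 and 14.15 to 14.31). Of 6 mesothelial markers 5 fell in KO and 4 in WT, and Msln fell by 1.13 in KO and by 0.47 in WT. The part of these cells in the collagen values was not tested.

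Genes whose pattern within groups was most like that of single chains were listed over the 16 arrays, which share 4 group means, as a description. They were picked as the highest of all non-collagen genes, so a high r is in part a result of that choice. No link between the genes was tested. For Col6a5 they were Ccl7 (r = 0.94), Saa3 (0.90) and Neb (0.90). For Col1a1 they were Lix1l (0.87), Haghl (0.85) and Acsf3 (0.85), and for Col3a1 Mrpl3 (0.85), Dmbt1 (0.84) and Tyms-ps (0.80). Col4a1 was followed by Ehd4 (0.93), Cdkn1b (0.93) and P3h3 (0.92).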

How the data were processed

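From each lung sample 50 ng of total RNA was labelled for whole-transcript arrays, per the labels' protocols. Per the submitters' processing notes, the authors used RMA in Affymetrix Expression Console, which leaves deposited log2 levels. This method corrects background, normalizes across arrays and summarises probes. Tool versions and the array's genome build: not given in the sources used here. Of 35556 probe sets, 21789 had 1 gene symbol, 1621 several and 12146 none listed. Each gene was represented by its single-symbol probe set of highest mean. The number of arrays limits the precision.

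The limma package (3.58.1, under R 4.3.3) was run on the unaltered values through lmFit, contrasts.fit and eBayes, with 4 group means and no covariate. P-values are two-sided and Benjamini-Hochberg adjusted over 19938 genes. The fit was tested on simulated data. Any chain could be named, with per-array values for chains that passed in a comparison. Up to 4 genes per pathway list and comparison were named, as were markers that moved with a chain and the 3 genes closest to each of 4 chains. Promoter windows came from RefSeq (GRCm38.p6). The members, lists and alternatives were chosen with earlier results of these data known. The alternatives were quantile normalization, a median shift, a filter on dim genes, a variance trend, the mean of probe sets, a replicate block, a clock covariate, a fit of only the groups compared, arrays left out and, added after seeing the data, the other probe set of Col6a5 and Col6a6.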

Additional observations from a re-analysis of the deposited data

Results flagged for a closer look

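In 10 of 176 combinations of chain and group, 1 array lay far from the other 3, with a gap whose share of the group's range was above Dixon's 95% critical value. Chance alone flags about 1 in 20 groups. In KO HDM these were Col1a2 on array 3 (11.0, others 10.87 to 10.89), Col4a4 on array 4 (9.81, others 9.49 to 9.53), Col10a1 on array 4 (8.48, others 8.25 to 8.29), Col5a2 on array 1 (9.34, others 9.49 to 9.51) and Col19a1 on array 1 (8.22, others 8.04 to 8.07). In WT saline they were Col6a2 (10.25, others 10.11 to 10.12), Col11a1 (8.92, others 8.96 to 8.97) and Col24a1 (8.68, others 8.78 to 8.81), each on array 4. Col5a3 was low on WT HDM 2 (8.61, others 8.79 to 8.82) and Col23a1 on KO saline 3 (9.54, others at 9.6).

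The change with HDM differed between genotypes by limma's test of the difference itself for 5 chains, by 0.42 for Col1a1, 0.43 for Col3a1, 0.55 for Col6a2, 0.5 for Col6a3 and 0.77 for Col14a1. In each the signed change was higher in KO, and for Col6a3 only the fall in WT passed by itself.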

How the results depend on the processing

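Of 1158 single-chain comparisons with an alternative, 850 kept direction and call, 307 kept direction and lost the call, and 1 reversed (Col6a5, KO against WT under HDM, -0.14 with the clock score). The cause of changed counts was not tested, except that leaving out arrays leaves fewer samples. For HDM in WT (8 chains) the count was 3 with the median shift, 0 with the clock score, 0 without WT saline 2 and 3, and 2 in a fit of only these groups. For KO against WT under HDM (12) it was 0 with the clock score and 7 in a fit of only these groups. For the difference of HDM changes (5) it was 0 with the clock score and 0 without WT saline 2 and 3. For HDM averaged over genotypes (12) these gave 5 and 7, and for KO averaged over treatments (7) they gave 0 and 2. With single arrays left out the counts were 0 to 6 for HDM in WT, 8 to 12 for HDM in KO, 0 to 0 for KO against WT under saline, 10 to 14 under HDM, 0 to 9 for the difference of HDM changes, and 6 to 17 and 2 to 9 for the averages. Same-numbered arrays correlated at -0.276 to 0.333, so pairing by replicate number was not seen throughout. This check cannot see a level shared by lower against higher replicate numbers. In array order, the mean centred level of the chains was 0.05, 0.03, 0.02 and -0.01 in WT saline. It was 0.04, 0.03, -0.04 and -0.03 in KO saline. Under HDM it did not fall in this way (0.02, 0.07, 0.05 and 0.06 in KO, -0.06, -0.14, -0.01 and -0.08 in WT). A structure shared by replicate number was not tested further. With the replicate number as a block the counts were 7, 11, 0, 12 and 5 for the comparisons in that order, and 11 and 7 for the averages. The other probe set of Col6a5 and Col6a6, chosen after seeing the data, left all counts but that of the difference (6) as they were.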
